A study of Homo sapiens with 8 samples.

Results

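The transcripts of the AMPK and mTORC1 nutrient sensors were examined in MDA-MB-157, a human breast cancer cell line labelled as estrogen receptor negative. The set held 10 genes chosen by symbol: the AMPK subunit genes PRKAA1, PRKAA2, PRKAB1, PRKAB2, PRKAG1 and PRKAG2, the mTORC1 genes MTOR, RPTOR and DEPTOR, and TSC1, a negative regulator of mTORC1. All 10 had a row among the 21059 genes tested. For 48 hours the low glucose group had 5 mM and the high glucose group 25 mM glucose in its medium, with 4 libraries per group. Per the study's methods, all cells were first conditioned in low-glucose medium, and both arms were then kept without serum. The comparison asks how a glucose level that models hyperglycemia alters transcript abundance in these cells.

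AMPK is a kinase that senses a low cellular energy charge. It is a trimer of a catalytic alpha subunit, a scaffolding beta subunit that can bind glycogen, and a gamma subunit that binds AMP, ADP and ATP, and each class is encoded by more than one gene. mTORC1 is a kinase complex that promotes protein and lipid synthesis and represses autophagy when nutrients and growth factors are plentiful. AMPK restrains it by phosphorylating RPTOR and the TSC complex. RNA levels alone were measured here, not the activity or phosphorylation of these proteins.

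Expression is given in CPM (reads per 1000000, with the authors' scaling), and changes are high minus low glucose on the log2(CPM + 1) scale, which understates the change of low genes. A call is a Benjamini-Hochberg adjusted p under 0.05 by limma over all 21059 genes. The libraries held an estimated 9721649 to 12482542 reads, and 3 reads, taken as the floor of detection, equalled 0.212 to 0.267 CPM. Of the hormone receptors, ESR1 was at most 0.17 CPM in every library and PGR was at 4.33 to 5.95 CPM. The mesenchymal marker VIM was at 2856 to 4116 CPM. Epithelial markers were mixed, with KRT8 at 76.4 to 138 CPM, KRT18 at 156 to 238 CPM and CDH1 at 0.33 to 1.41 CPM. EPCAM was at 3.93 to 7.62 CPM and KRT19 was at most 0.0825 CPM. High glucose replicate 1 stood apart from the rest in relation to transcript length. Across 11223 genes, each library was compared with the mean of the other libraries of its group. The Spearman correlation of this difference with transcript length was -0.65 in high glucose replicate 1. It was 0.25 to 0.47 in the other high glucose libraries, whose reference includes replicate 1, and -0.13 to 0.06 at low glucose. Results without that library are therefore given in the text for TSC1, MTOR and RPTOR. The plot of member changes shows them for every member above the detection floor. No member's call changed when that library was left out. The log2 change went from 0.24 to 0.28 for PRKAA1, from -0.69 to -0.73 for PRKAG1 and from -0.68 to -0.64 for DEPTOR. It went from 0.39 to 0.36 for PRKAG2, from 0.01 to 0.05 for PRKAB2 and from 0.02 to -0.01 for PRKAB1.

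Of the 10 members, 3 rose (PRKAA1, PRKAG2 and TSC1), 3 fell (PRKAG1, RPTOR and DEPTOR) and 4 did not pass the test. The same 6 had no overlap between the groups. Over all genes tested, 46.8% passed, 22.0% in the upward and 24.8% in the downward direction. Expression level matters for this background, since 66.9% of the genes with a mean of at least 5 CPM passed and 65.0% of them had groups that did not overlap. The members' count was thus near that of other genes at their level, and is no result about the set. The median absolute log2 change was 0.32 over the 9 members with at least 5 CPM and 0.35 over all genes with at least 5 CPM. What follows concerns the direction and size for each gene.

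**Figure D1:**
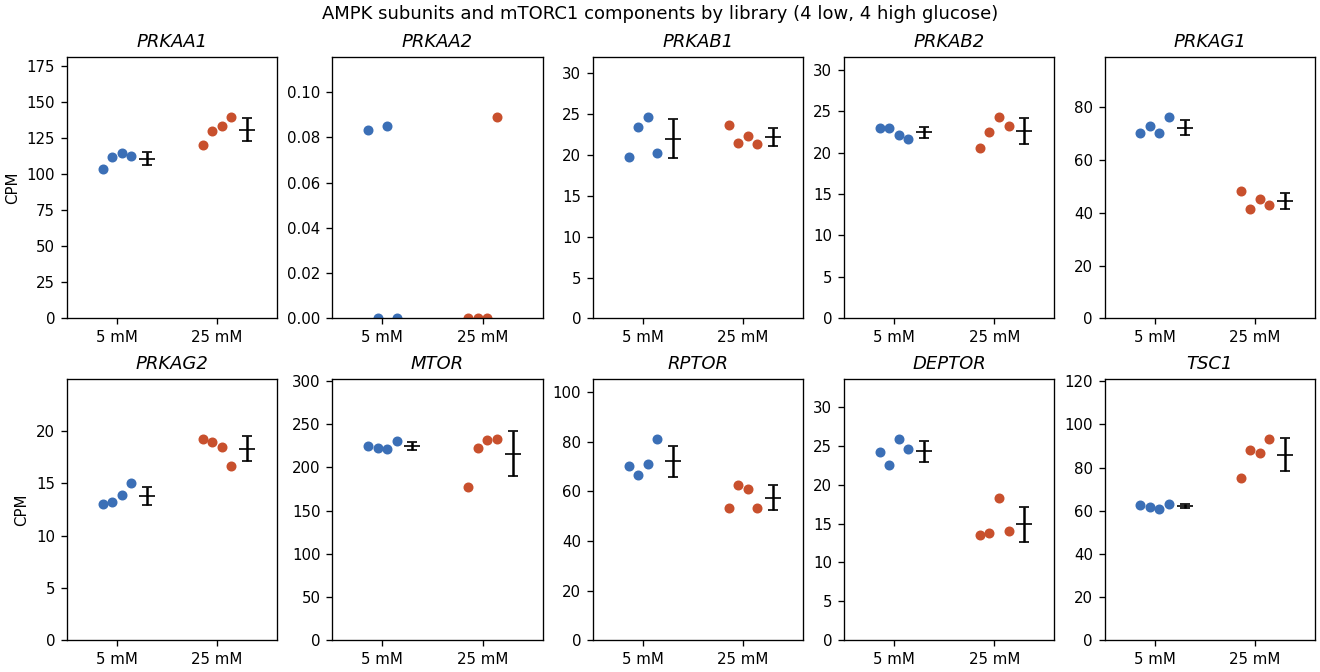
CPM of the 10 members in each library. Blue points are the 4 low glucose (5 mM) and red points the 4 high glucose (25 mM) libraries in replicate order, each axis starts at 0, and black bars give the mean ± SD (left out for PRKAA2, which had at most 1 read in any library). PRKAG1 lies at 70.1 to 76.2 CPM at low and 41.5 to 48.3 CPM at high glucose, and MTOR overlaps between the groups except that high glucose replicate 1 is lowest at 177 CPM.

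Among the catalytic alpha subunits, PRKAA1 (ENSG00000132356.11, chr5:40759389-40798374, GRCh38.p14, as for all positions) encodes alpha1. It measured 103.9, 111.7, 114.6 and 112.5 CPM in the low glucose libraries and 120.4, 129.8, 133.3 and 139.4 CPM in the high glucose libraries. Every high glucose library was above every low glucose library. PRKAA1 rose by 18.1%, from 111 ± 4.65 to 131 ± 7.95 CPM (SD, n = 4 each), or 0.24 in log2 (SE 0.051, limma adjusted p = 0.00701). It was the smallest change among the members that passed. When the libraries were forced to the same distribution by quantile normalization, the change was 0.11 and no longer passed (limma adjusted p = 0.101). In bulk RNA, more cells with a transcript and more of it per cell cannot be told apart.

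PRKAA2 (ENSG00000162409.11, chr1:56645314-56715335), the alpha2 gene that predominates in muscle, was barely seen. It had 1 read in low glucose replicates 1 and 3 and in high glucose replicate 4, and 0 in the other libraries. All values were under the floor of 3 reads, so no fold is given, and a level of up to 0.212 to 0.267 CPM could not have been detected reliably. At the level of RNA, alpha1 accounted for nearly all catalytic subunit transcript at either glucose level.

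The genes of the scaffolding beta subunits did not pass the test. PRKAB1 (ENSG00000111725.11, chr12:119667952-119681619), which encodes beta1, measured 19.75, 23.44, 24.63 and 20.31 CPM at low and 23.65, 21.52, 22.35 and 21.33 CPM at high glucose. Its high glucose libraries lay within the low glucose range, and the log2 change was 0.02 with a 95% interval of ± 0.182 (limma adjusted p = 0.923). PRKAB2 (ENSG00000131791.8, chr1:147155106-147172470), the beta2 gene, measured 23.0, 23.02, 22.17 and 21.63 CPM at low and 20.54, 22.48, 24.25 and 23.2 CPM at high glucose. Here the low glucose range lay within the high glucose range, and the log2 change was 0.01 with a 95% interval of ± 0.123 (limma adjusted p = 0.959). These intervals bound the change but do not show that it was 0.

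The genes of the nucleotide-binding gamma subunits moved in opposite directions. PRKAG1 (ENSG00000181929.12, chr12:49002274-49018776), which encodes gamma1, measured 70.1, 72.88, 70.08 and 76.19 CPM at low and 48.28, 41.45, 45.2 and 42.93 CPM at high glucose, with no overlap. It fell from 72.3 ± 2.90 to 44.5 ± 2.98 CPM (SD, n = 4 each), or -0.69 in log2 (SE 0.052, limma adjusted p = 4.5e-05), which had the smallest p of the set. PRKAG2 (ENSG00000106617.14, chr7:151556127-151877115), which encodes gamma2, the subunit known for variants that cause a glycogen-storage cardiomyopathy, measured 13.0, 13.25, 13.85 and 15.0 CPM at low and 19.2, 18.97, 18.48 and 16.62 CPM at high glucose. Again no library of one group reached the other. PRKAG2 rose by 33.0%, from 13.8 ± 0.892 to 18.3 ± 1.17 CPM, or 0.39 in log2 (SE 0.062, limma adjusted p = 0.00181). Both gamma calls held in each of the 14 alternative settings, with log2 changes of -0.77 to -0.63 for PRKAG1 and 0.36 to 0.47 for PRKAG2.

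Other transcripts can share reads with PRKAG1. In GENCODE release 44, 97.3% of the 31-base words of its transcript also occur in ENSG00000288710, a gene on the same strand whose exons include those of PRKAG1 and which is not analysed here, so reads of the pair could have been divided between them. A further 514 exonic bases lie opposite DDN-AS1, which measured 0.317 to 1.43 CPM, and 99 exonic bases of PRKAG2 lie opposite PRKAG2-AS1, at 0.25 to 1.4 CPM. Whether strand was used in counting is not given for these libraries. The antisense levels were far below those of the gamma genes in every library. The part of the shared reads in the fall of PRKAG1 was not tested.

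The 250 bases before the RefSeq start of PRKAG1 are shown because this gene had the lowest p of the set and a single annotated window (GRCh38.p14, chr12:49018777-49019026, minus strand, 5′ to 3′). Capitals mark TGACG, the core of the cAMP response element, and CCGGAAG, an ETS factor core, each searched on both strands, so that CGTCA and CTTCCGG are the same words read on the other strand. The marked words do not overlap each other.
PRKAG1 promoter: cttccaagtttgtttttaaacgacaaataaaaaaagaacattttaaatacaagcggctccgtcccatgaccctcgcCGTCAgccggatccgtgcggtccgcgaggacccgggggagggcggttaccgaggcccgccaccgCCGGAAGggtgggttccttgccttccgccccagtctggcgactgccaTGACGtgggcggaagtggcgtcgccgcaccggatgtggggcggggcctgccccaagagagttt
The window held TGACG at 2 positions and CCGGAAG at 1. GGGCGG, the GC box, was present at 4 positions and is left in lower case. Among 35116 RefSeq promoter windows, 21.2% held TGACG, 8.52% held CCGGAAG and 42.6% held GGGCGG. Windows of 9 of the 10 members were searched, 13 windows in all, and DEPTOR was left out. TGACG was in 3 of the 13, in those of PRKAG1, TSC1 and 1 of PRKAG2. CCGGAAG was in 4, in windows of the same genes and of PRKAB1. CCAAT was in 3 of the 13 and in 32% of all windows. CACGTG, the E-box that MYC and the TFEB family bind, was in 0 of the 13 and in 6.34% of all windows, which says only that these letters are not there. A match describes the sequence and is not a measured site.

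To compare the levels of AMPK isoforms, CPM were divided by the length of the canonical GENCODE transcript in kb. PRKAG1 held 91.4%, 91.6%, 90.9% and 90.9% of the summed gamma transcript per length in the low glucose libraries and 83.3%, 81.2%, 82.9% and 83.6% in the high glucose libraries. Its share moved from 91.2% ± 0.336 to 82.7% ± 1.07 (SD, n = 4 each), a difference of -8.47 percentage points with no overlap, and PRKAG2 held the rest. Without division by length the shares were 84.0% and 70.8%. PRKAG1 stayed the main gamma transcript in every library. The beta share of PRKAB1 was 70.1% ± 2.31 at low and 70.3% ± 2.18 at high glucose, and these ranges overlapped. Without division by length it was 49.4% and 49.6%, so the lead of PRKAB1 over PRKAB2 rested on the transcript lengths used. Because the shares combine values already tested gene by gene, they are given as a description without a test.

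**Figure D2:**
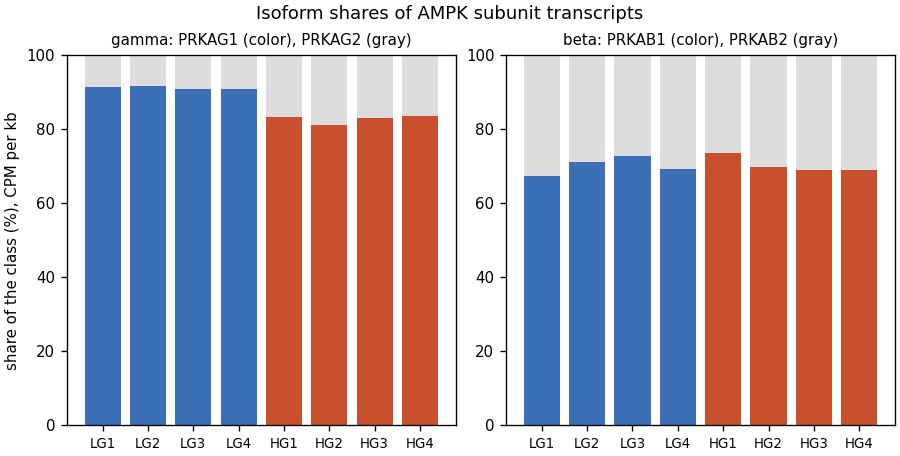
Share of the summed gamma (left) and beta (right) subunit transcript, in CPM per kb, held by PRKAG1 and PRKAB1 (colored; blue for the 4 low glucose and red for the 4 high glucose libraries) and by PRKAG2 and PRKAB2 (gray). The PRKAG1 share is 90.9% to 91.6% at low and 81.2% to 83.6% at high glucose, whereas the PRKAB1 shares overlap.

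Summed by class, the alpha transcripts were at 21.1 ± 0.884 CPM per kb at low and 24.9 ± 1.52 CPM per kb at high glucose, with no overlap. The beta sum was 14.1 ± 1.08 and 14.2 ± 0.365 CPM per kb, with overlap. The gamma sum was 47.8 ± 1.97 and 32.4 ± 1.96 CPM per kb, with no overlap. The gamma class therefore had the highest summed level per length at either glucose level, and the beta class the lowest. The place of gamma, the PRKAG1 shares above and its rank below depend on how reads shared with ENSG00000288710 were divided. PRKAG3, the gamma3 gene, is not in the sum.

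TSC1 (ENSG00000165699.14, chr9:132891349-132945378) encodes hamartin, which stabilizes TSC2, and the complex turns off the GTPase RHEB that activates mTORC1. TSC1 measured 62.76, 61.62, 60.9 and 63.15 CPM at low and 75.18, 88.32, 86.93 and 93.05 CPM at high glucose. The low glucose libraries were tightly grouped and all 4 high glucose libraries were above them, with replicate 1 lowest. TSC1 rose by 38.3%, from 62.1 ± 1.04 to 85.9 ± 7.60 CPM (SD, n = 4 each), or 0.46 in log2 (SE 0.062, limma adjusted p = 8.1e-04). Without high glucose replicate 1 the change was 0.52 (limma adjusted p = 3.0e-05), and after removal of each library's length trend it was 0.42 (limma adjusted p = 2.5e-07). TSC1 has a long transcript of 8598 bases, and 349 of its exonic bases lie opposite GFI1B. Its partner TSC2, the GTPase-activating subunit, went the other way. TSC2 measured 67.94, 75.15, 77.3 and 77.98 CPM at low and 48.05, 60.87, 59.42 and 47.51 CPM at high glucose, and fell by 0.47 on the log2 scale (limma adjusted p = 0.0062). The ratio of TSC1 to TSC2 per length was 0.623 ± 0.0451 at low and 1.20 ± 0.178 at high glucose, with no overlap.

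The window given for TSC1, the member with the largest rise, holds the 250 bases before the start of a RefSeq transcript, and this start lies inside the gene's full span given above, so it is not the outermost one (GRCh38.p14, chr9:132944617-132944866, minus strand, 5′ to 3′), with capitals for the same words as in the PRKAG1 window.
TSC1 promoter: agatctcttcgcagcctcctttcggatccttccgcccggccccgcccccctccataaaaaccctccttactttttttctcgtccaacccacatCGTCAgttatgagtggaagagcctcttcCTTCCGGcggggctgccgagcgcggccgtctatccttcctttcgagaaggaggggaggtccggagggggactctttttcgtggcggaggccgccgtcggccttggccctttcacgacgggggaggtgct
This window held TGACG at 1 position and CCGGAAG at 1, both as the reverse complement, and GGGCGG at 2. The windows of PRKAG1 and TSC1 were chosen from the results of these genes, so their opposite directions carry no information about the words. PRKAG2, with both words in 1 of its windows, rose, and PRKAB1, with CCGGAAG only, did not pass. A role of these words was not tested.

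MTOR (ENSG00000198793.12, chr1:11106535-11262551), the catalytic subunit, measured 224.0, 221.7, 221.0 and 230.7 CPM at low and 177.0, 222.2, 231.4 and 232.3 CPM at high glucose. High glucose replicate 1 was lowest, and the other high glucose libraries overlapped the low glucose ones. The log2 change was -0.06 with a 95% interval of ± 0.206 (limma adjusted p = 0.600). Its direction depended on that library, and its call on the treatment of transcript length. Without high glucose replicate 1 the change was 0.03 (limma adjusted p = 0.397). With the length trend removed, which matters for a transcript of 8721 bases, it was -0.10 and passed (limma adjusted p = 0.0371). No direction is therefore given for MTOR. In the annotation, MTOR, RPTOR and DEPTOR have 371, 261 and 252 exonic bases opposite genes on the other strand.

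RPTOR (ENSG00000141564.15, chr17:80544838-80966368) encodes Raptor, the subunit that defines mTORC1 and recruits its substrates. It measured 70.1, 66.5, 71.18 and 81.0 CPM at low and 53.29, 62.49, 61.03 and 53.23 CPM at high glucose. The highest high glucose library, at 62.5 CPM, was below the lowest low glucose library, at 66.5 CPM. RPTOR fell from 72.2 ± 6.20 to 57.5 ± 4.94 CPM (SD, n = 4 each), or -0.32 in log2 (SE 0.079, limma adjusted p = 0.0131). The change was -0.29 without high glucose replicate 1 (limma adjusted p = 0.032). Per length, the ratio of RPTOR to MTOR was 0.410 ± 0.0277 at low and 0.343 ± 0.0389 at high glucose, and the groups overlapped.

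DEPTOR (ENSG00000155792.10) encodes a subunit that binds mTOR and inhibits it in both of its complexes. It measured 24.25, 22.52, 25.82 and 24.62 CPM at low and 13.55, 13.79, 18.31 and 14.04 CPM at high glucose. There was no overlap, though high glucose replicate 3 stood above its group. DEPTOR fell from 24.3 ± 1.36 to 14.9 ± 2.27 CPM (SD, n = 4 each), or -0.68 in log2 (SE 0.098, limma adjusted p = 0.00113), close in size to that of PRKAG1. Without high glucose replicate 3 the change was -0.77 (limma adjusted p = 1.1e-04). The ratio of DEPTOR to MTOR per length was 0.368 ± 0.0215 at low and 0.236 ± 0.0328 at high glucose, with no overlap.

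**Figure D3:**
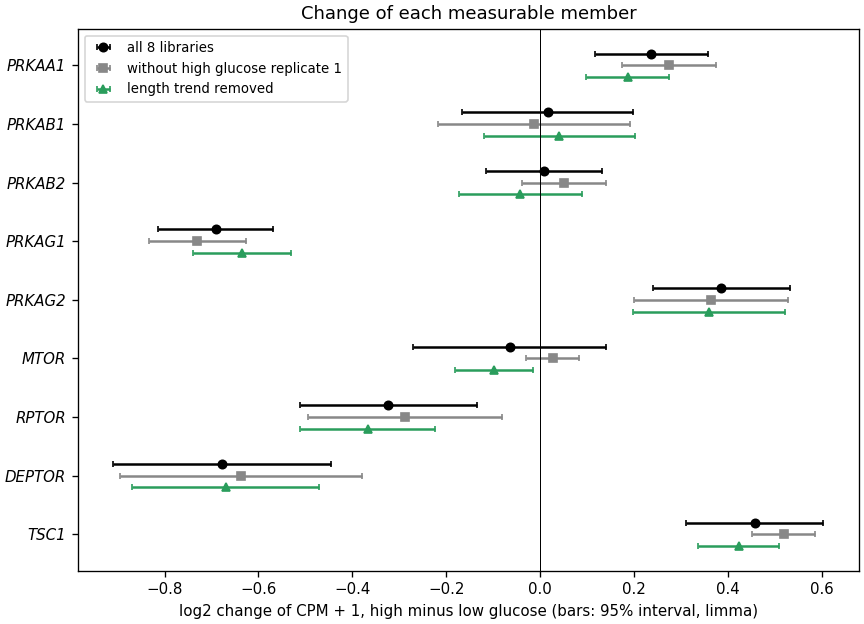
Change of the 9 members above the detection floor, as the log2 change of CPM + 1 (high minus low glucose), with 95% intervals from limma. Black circles use all 8 libraries, gray squares leave out high glucose replicate 1, and green triangles follow removal of each library's length trend. PRKAG1 and DEPTOR show the largest falls (-0.69 and -0.68), TSC1 the largest rise (0.46), and MTOR shifts between 0.03 and -0.10.

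The members were then ordered by level. At low glucose PRKAG1 was highest per length (43.6 CPM per kb, range 42.3 to 46.0), followed by MTOR (25.7) and PRKAA1 (21.1), and these 3 were apart from each other. RPTOR (10.6), PRKAB1 (9.93) and DEPTOR (9.46) overlapped in range. TSC1 (7.22) was below them, PRKAB2 and PRKAG2 overlapped at 4.20 CPM per kb each, and PRKAA2 was last. At high glucose the ranges of PRKAG1 (26.8 CPM per kb), PRKAA1 (24.9) and MTOR (24.7) overlapped, so the lead of PRKAG1 no longer exceeded the spread. TSC1 (9.99) reached the range of PRKAB1 (10.0), and DEPTOR (5.81) came down to that of PRKAG2 (5.59), which was now above PRKAB2 (4.23) without overlap.

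Lists of 105 genes around AMPK and mTORC1 were examined by role, of which 104 were in the table and PRKAG3, the gamma3 gene, is not analysed here. Of the 104, 65.4% passed, 38 of them upward and 30 downward, and 36 did not pass. Of the 96 with a mean of at least 5 CPM, 64 passed, near the 66.9% of all genes at that level, of which 33.6% rose and 33.3% fell. The median log2 change was -0.01, as over all genes. For these genes, a rise or fall given without a unit, or a bare number beside a symbol, is a log2 change of CPM + 1.

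**Figure D4:**
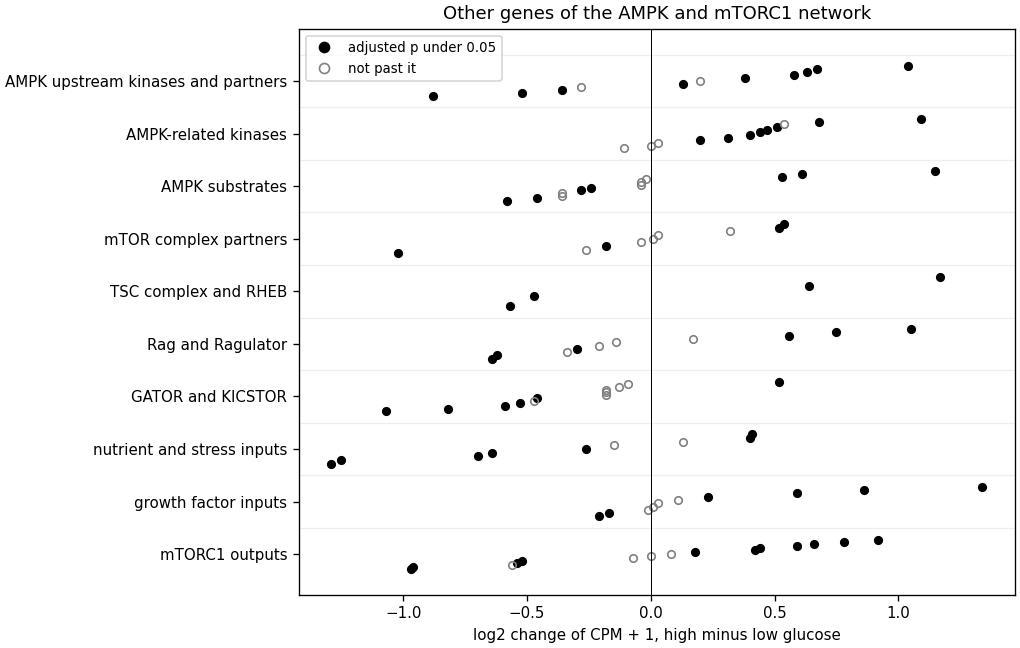
Log2 change of CPM + 1 (high minus low glucose) for the 104 other genes, 1 point per gene, grouped by list and sorted within each. Filled points have an adjusted p under 0.05 by limma and open points do not, and over all lists 38 filled points lie above 0 and 30 below.

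Upstream of AMPK, 6 of 11 genes rose and 3 fell. STK11, which encodes the main activating kinase LKB1, rose from 26.7 ± 1.58 to 40.5 ± 2.30 CPM (log2 change 0.58), while STRADA, the pseudokinase that activates LKB1, fell from 33.5 ± 0.692 to 17.7 ± 0.791 CPM (log2 change -0.88). FLCN and FNIP2, partners in a complex that binds AMPK and acts on Rag GTPases, rose by 0.63 and 1.04. Of the 12 AMPK-related kinases, which LKB1 also activates, 8 rose and 0 fell, with a median log2 change of 0.42, including SIK1 (1.09), MARK4 (0.44) and BRSK2 (0.68). Of these kinases 11 had a mean of at least 5 CPM, the 8 that rose among them. Over all genes at that level 66.9% passed and 33.6% rose, so the share that passed is no result about this list. The one-sided direction was picked out from all the lists and is a description without a test. Of the 12 AMPK substrates, 3 rose, 4 fell and 5 did not pass. CRTC2, a CREB coactivator that AMPK and the SIK kinases hold in the cytoplasm, rose by 1.15, and PFKFB3, a driver of glycolysis, by 0.53. ULK1, the kinase that starts autophagy, had a log2 change of -0.36 and did not pass (limma adjusted p = 0.0654).

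Among the 9 other genes of the mTOR complexes, 2 rose and 2 fell. MLST8, a subunit of both complexes, fell from 36.7 ± 2.45 to 17.6 ± 2.73 CPM (log2 change -1.02). AKT1S1, which encodes the mTORC1 inhibitor PRAS40, rose by 0.52, and TTI2, part of a chaperone for mTOR and related kinases, by 0.54. Thus the transcripts of the mTORC1 inhibitors DEPTOR and AKT1S1 moved in opposite directions. RICTOR, which defines mTORC2, measured 79.03 to 81.99 CPM at low and 78.07, 104.1, 112.9 and 114.5 CPM at high glucose. Its log2 change of 0.32 did not pass (limma adjusted p = 0.0591), and without high glucose replicate 1 it was 0.45 (limma adjusted p = 1.4e-04). The ratio of RICTOR to RPTOR per length was 0.806 ± 0.0776 at low and 1.28 ± 0.209 at high glucose, with no overlap. In the TSC list, RHEB, the GTPase that activates mTORC1, rose from 64.7 ± 2.46 to 102 ± 4.84 CPM (log2 change 0.64), and TBC1D7, the third TSC subunit, fell by 0.57.

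Of the 10 Rag and Ragulator genes, which tether mTORC1 to the lysosome, 3 rose and 3 fell, with LAMTOR3 (1.05), RRAGC (0.75) and RRAGD (0.56) the risers. Of the 12 GATOR and KICSTOR genes 5 fell, the GATOR2 genes WDR24 by 0.82 and WDR59 by 0.53 among them, and SEH1L, a GATOR2 subunit that is also part of the nuclear pore, alone rose, by 0.52. Of the 9 nutrient and stress inputs 2 rose and 5 fell. DDIT4, which encodes the stress-induced mTORC1 inhibitor REDD1, measured 109.4 to 123.7 CPM at low and 42.6 to 54.0 CPM at high glucose (log2 change -1.25). Its relative DDIT4L fell by 1.29, LARS1, a leucyl-tRNA synthetase, by 0.64, and SESN2, a leucine sensor, by 0.26 (limma adjusted p = 0.039), a call that was lost in 8 of the 14 alternative settings.

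On the growth factor side 4 of 10 genes rose and 2 fell. IRS2 rose from 23.4 ± 2.24 to 60.9 ± 4.06 CPM (log2 change 1.34), IRS1 by 0.86, both adaptors of the insulin receptor, and PDPK1, the kinase that activates AKT, by 0.59. Of the 15 mTORC1 outputs 7 rose and 4 fell. RPS6KB1, which encodes the S6 kinase, rose from 100 ± 4.34 to 173 ± 13.5 CPM (log2 change 0.78). EIF4EBP1, the translation repressor that mTORC1 inactivates, fell from 90.8 ± 2.35 to 46.8 ± 8.18 CPM (log2 change -0.96). LPIN1, a phosphatidate phosphatase that mTORC1 keeps out of the nucleus, fell by 0.97, and EIF4B, an initiation factor downstream of S6 kinase, by 0.52. Every gene given in these network paragraphs as having risen or fallen had an adjusted p under 0.05 by limma and groups that did not overlap. Several share exonic bases with a gene on the other strand, 2586 in PDPK1, 1303 in WDR24, 932 in TTI2, 784 in TSC2, 747 in EIF4B and 710 in TBC1D7, and reads of such pairs may not have been told apart. On the same strand, SIK1 shares 4741, STRADA 1970, RRAGC 1183, FLCN 1161 and TBC1D7 568 exonic bases with another annotated gene. In the same way AKT1S1 shares 182, RPS6KB1 149 and MARK4 90 exonic bases. The levels of all these genes are uncertain to that extent.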

How the data were processed

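RNA was sequenced from 8 MDA-MB-157 libraries, 4 at 5 mM and 4 at 25 mM glucose. The authors deposited 1 table of CPM per gene, scaled with TMM factors, and it holds no columns of the authors' own comparisons. The submitters name edgeR and hg38 in their processing notes. The study's methods, in a section written for tumors but headed for cultured cells too, describe TopHat alignment to hg19, so the build and aligner of this table are not settled, and the counting tool is not given in the sources used here. Of 21077 lines, 18 Y copies of X-linked rows were left out. Low values lay on steps of 1 read (0.0706 to 0.0889 CPM), but 72.0% to 73.3% of values under 200 reads were within 0.005 read of a whole number, so reads were not recovered and no count test was run. Depths and the floor of 3 reads cover counting error only.

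Groups and replicate numbers came from the labels. These do not say whether replicates were separate cultures, so p-values measure only the spread between these samples. Values were taken as log2(CPM + 1), with no filter, and compared by limma (version 3.58.1, R 4.3.3; lmFit and trended eBayes, 2-sided, without covariates), with Benjamini-Hochberg adjustment over all 21059 genes and a threshold of 0.05. The steps were tested on simulated data. Levels per length used GENCODE 44 canonical transcripts, matched for 20730 genes. Positions and promoter windows are from RefSeq on GRCh38.p14, and describe the annotation, not the alignment.

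All 10 members are named, together with PRKAG3, TSC2, RHEB, MLST8, AKT1S1, RICTOR, STK11, DDIT4, SESN2, ULK1, RPS6KB1 and EIF4EBP1 whatever their values, and at most 3 genes per list with the smallest adjusted p among those that passed with at least 5 CPM. Of the genes this rule selects, 1 is not reported here. Members and lists were chosen with earlier results of these data known. Alternatives were a pseudocount of 0.1, a minimum of 1 CPM, median-of-ratios scaling, quantile normalization, a replicate block, removal of a spline on transcript length (5 degrees of freedom) in each library, and leaving out each library in turn.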

Additional observations from a re-analysis of the deposited data

Results flagged for a closer look

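In 6 of the 92 groups of 4 libraries examined, the highest or lowest library lay apart from the other 3 (Dixon's test of the gap over the range), where chance gives about 1 in 20 groups, here 4.6. Among the members this was DEPTOR in high glucose replicate 3, at 18.3 CPM against 13.6 to 14.0 CPM in the other high glucose libraries. Among the other network genes it was CRTC2 in high glucose replicate 3 (74.5 CPM), ULK1 in high glucose replicate 4 (16.7 CPM), and TTI2, RHEB and LAMTOR3 in high glucose replicate 1 (32.6, 109 and 97.6 CPM). All 6 were high glucose libraries.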

How the results depend on the processing

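Over the 14 alternatives the number of genes past the threshold was 8899 to 10156, of members 5 to 7 and of network genes 63 to 77. The length correction adjusted over 14227 genes, the minimum of 1 CPM over 14372 and the rest over 21059. The counts are therefore not on the same base. For the 9 measurable members, 115 of 126 values kept direction and side of the threshold. PRKAA1 was lost under quantile normalization (0.11). MTOR passed once the length trend was removed (-0.10), and PRKAB2 was then -0.04, against 0.01 with no correction. Leaving out 1 library at a time gave log2 changes of PRKAB1 from -0.03 to 0.07, of PRKAB2 from -0.03 to 0.05 and of MTOR from -0.10 to 0.03, the highest MTOR value being that without high glucose replicate 1. Changes of PRKAB1 and PRKAB2 this near 0 have no stable sign. The cause of these differences was not tested. With a replicate block, RPTOR, at -0.32, did not pass (limma adjusted p = 0.0611), 5 members passed and 8921 genes did. Libraries with the same number did not deviate together (correlations of -0.040 to 0.069), so the numbers were not taken to pair the samples. Of 489 values of the 35 named network genes, 474 kept their side, 8 lost it, all for SESN2, and 7 gained it, for ULK1 and RICTOR. Depth limits PRKAA2, which was under the floor in every library.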
